A study of Mus musculus with 18 samples.

Results

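The 10 genes described here encode the 3 TGF-beta ligands (*Tgfb1*, *Tgfb2* and *Tgfb3*), 3 receptors (*Tgfbr1*, *Tgfbr2* and *Tgfbr3*) and the 4 latent TGF-beta binding proteins (*Ltbp1* to *Ltbp4*). They were picked by gene symbol, and all 10 had a row in each of the 3 deposited count tables, among 15853 genes present in all 3 tables. RNA was sequenced from 6 mouse cell populations, with 3 libraries each (18 in all). Bone GFP+ (hi) and bone GFP- cells were sorted fresh from long bones of Col2.3GFP mice, whose transgene expresses GFP from a fragment of the *Col1a1* promoter and so marks maturing osteoblasts. Bone chip GFP+ (hi) and bone chip GFP- cells were sorted from cultured bone chips of such mice after osteogenic differentiation. ESC-OB GFP+ (hi) cells were sorted after osteogenic differentiation of Col2.3GFP embryonic stem cells, and their reference was the ESC. A treatment label gives the ESC osteogenic differentiation too, but their titles and the study take them as undifferentiated. The labels describe both GFP- populations as heterogeneous, and give no age, no strain beyond the transgene and no statement that replicates were separate mice or cultures. The p-values therefore measure the spread between these libraries, which may be technical.

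TGF-beta is made as a latent complex. Each ligand stays bound to its own propeptide, which is linked to a latent TGF-beta binding protein that anchors the complex on fibrillin microfibrils of the matrix until integrins or proteases release it. Free ligand is bound by the type II receptor TGFBR2, which recruits and phosphorylates the type I receptor TGFBR1, and the signal passes to SMAD2 and SMAD3. Bone matrix is a large store of latent TGF-beta, laid down by osteoblasts and released during resorption.

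Total counts per library ranged from 4920502 to 43874837. Levels are given as CPM, counts per 1000000 of the library total, on totals scaled by TMM over the genes of all 3 tables, and a scaled value can pass the unscaled total where a few genes take much of a library. Fold changes and adjusted p-values come from edgeR fits of each source alone, and a gene counts as called where its adjusted p lay under 0.05. The log2 ratio of 2 CPM values exceeds the fitted log2 fold change by 0.14 in bone, and differs from it by -0.01 in bone chips and 0.01 in ESC-OB. *Col1a1* spanned 823375 to 857371 CPM in bone GFP+ cells and 7659 to 17294 CPM in bone GFP- cells, and 9 of 9 osteoblast markers were called higher in GFP+ cells of both bone and bone chips. In ESC-OB GFP+ cells *Col1a1* reached 1794 to 4419 CPM, but *Bglap*, the osteocalcin gene of mature osteoblasts, did not exceed 0.801 CPM. There 6 of 7 osteoblast markers tested were called higher than in ESC, and *Alpl*, the tissue-nonspecific alkaline phosphatase, was lower (-3.09). *Bglap* and *Sp7*, which had at most 3.26 CPM in ESC-OB GFP+ cells, were not among those tested. *Ibsp*, called higher, spanned 0.354 to 835 CPM in these cells. The 9 markers summed to 3317, 9366 and 5726 CPM in ESC-OB GFP+ replicates 1, 2 and 3, and replicate 2 was the highest of the 3 for 8 of the 10 genes, all but *Tgfbr2* and *Tgfbr3*. Transcripts of 4 chromosome Y genes summed to 625 to 1167 counts in the bone GFP- libraries and to 913 in bone GFP+ replicate 2, but to 6 and 9 in bone GFP+ replicates 1 and 3. The animals' sex therefore cannot be told apart from GFP status in those 2 libraries, and the call that changed with replicate 2 as the lone GFP+ library is given beside *Ltbp4*. ESC replicates 2 and 3 differed far less (chi-square per degree of freedom 1.68) than the other replicate pairs (6.76 to 125), but still beyond counting noise, and were kept as separate libraries.

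The 10 genes did not move as a block. In bone, *Tgfb1* was the 1 gene of the 10 called higher in GFP+ cells (19.5% of the 12559 genes tested were called higher), and *Tgfb2*, *Tgfbr3*, *Ltbp2* and *Ltbp4* were called lower (22.1% of all genes tested). In bone chips 4 of the 10 were higher, namely the 3 ligands and *Tgfbr1* (20.4% of 12841 genes), and 5 were lower, namely *Tgfbr2*, *Tgfbr3*, *Ltbp1*, *Ltbp2* and *Ltbp4* (23.1%). In ESC-OB 9 of the 10 were higher than in ESC (43.0% of 15415 genes), 0 were called lower (34.7%), and *Tgfbr1* was not called. At an unadjusted p under 0.05 in edgeR, and in DESeq2, 0 of the 10 were lower in ESC-OB as well. Over the 10 genes the log2 fold changes had a median of -0.39 for bone, -0.55 for bone chips and 5.20 for ESC-OB, beside medians over all genes tested of -0.00, -0.04 and 0.22. In these sorted bulk samples, fewer cells of a type and less RNA per cell cannot be told apart.

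**Figure D1:**
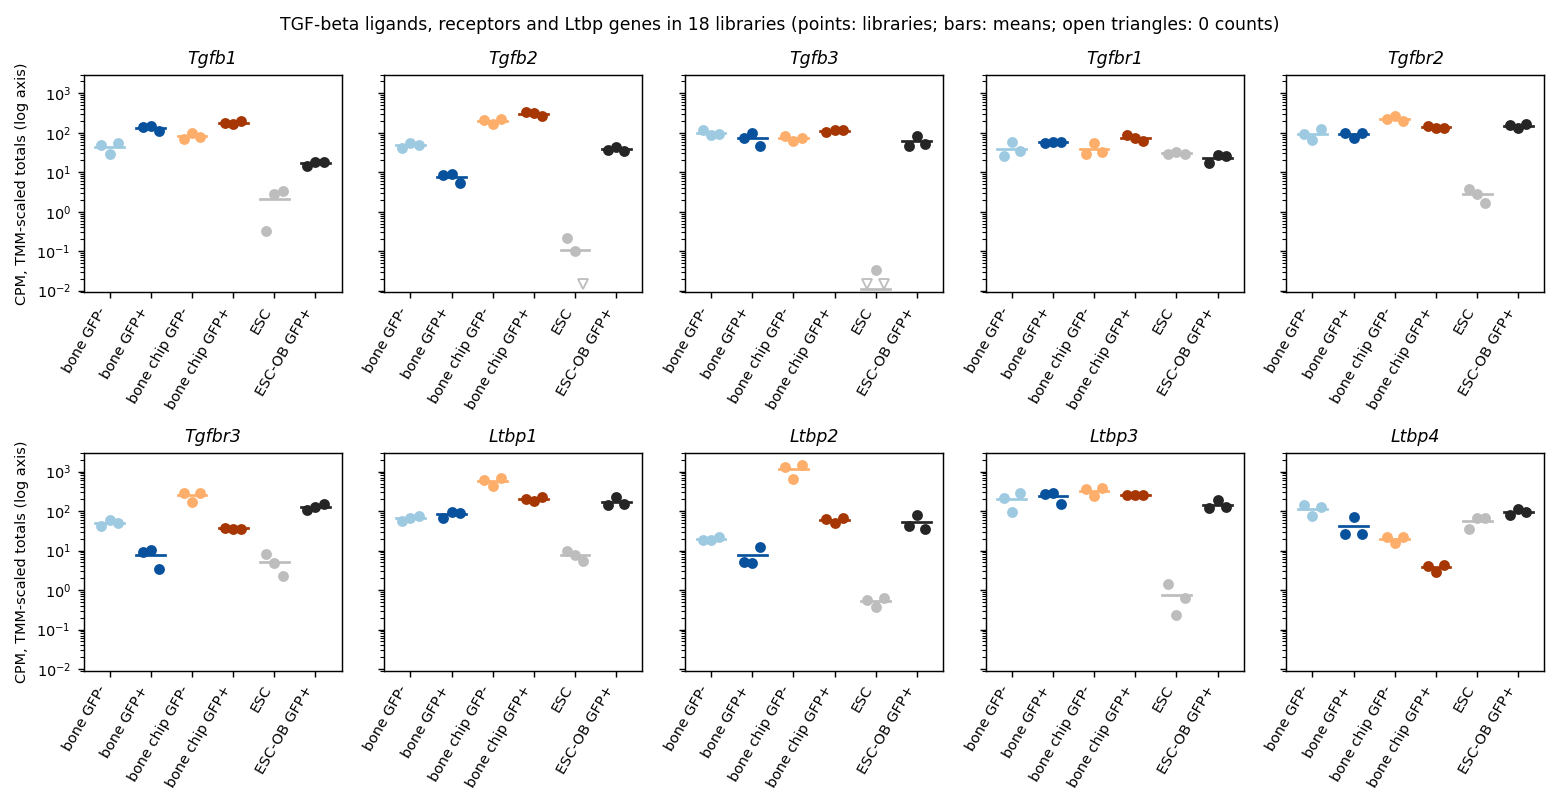
Level of each of the 10 genes in the 18 libraries, in CPM on a log axis. Points are libraries, bars are the means of 3, and open triangles mark libraries with 0 counts. The *Tgfb2* points of bone GFP+ cells (5.2 to 8.83 CPM) lie below those of bone GFP- cells, whereas those of bone chip GFP+ cells (263 to 335 CPM) lie above those of bone chip GFP- cells.

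**Figure D2:**
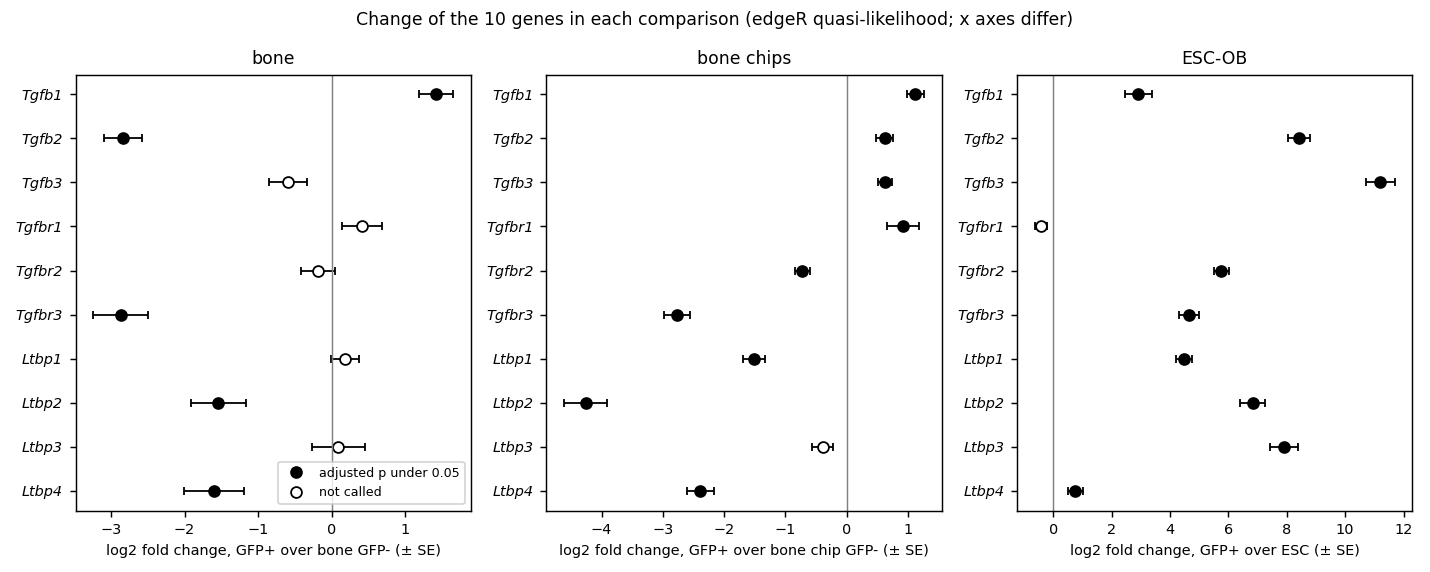
Log2 fold change of each gene (GFP+ over its reference) with its standard error, in the 3 comparisons, from edgeR. Filled points were called at an adjusted p under 0.05, and the x axes differ. *Tgfb1* lies right of 0 in each panel, and *Tgfbr3* lies left of 0 in bone and bone chips and right of 0 in ESC-OB.

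*Tgfb1* encodes the ligand most abundant in bone matrix (mm9 chr7:26472021-26490096, plus strand). It had 48.3, 29.5 and 55.6 CPM in the bone GFP- libraries and 137, 146 and 112 CPM in the bone GFP+ libraries. It had 69.3, 99.5 and 80.4 CPM in bone chip GFP- cells and 176, 168 and 194 CPM in bone chip GFP+ cells. In both sources the GFP+ libraries lay above the GFP- libraries without overlap. On the log2 scale GFP+ cells exceeded GFP- cells by 1.42 (SE 0.23, adjusted p = 0.00113) in bone, and by 1.12 (SE 0.14, adjusted p = 0.00101) in bone chips. The difference between these 2 effects was -0.30 (SE 0.29, adjusted p = 0.466) in the interaction test of 12 libraries. In ESC it had 0.329, 2.79 and 3.27 CPM, with replicate 1 lowest, and in ESC-OB GFP+ cells 14.5, 18.1 and 17.9 CPM, which were 2.92 higher on the log2 scale (SE 0.47, adjusted p = 1.8e-04). Its 6 populations were ordered bone chip GFP+, bone GFP+, bone chip GFP-, bone GFP-, ESC-OB GFP+ and ESC, and no neighbours in that order overlapped. On unscaled totals the mean in bone chip GFP- cells (90.8 CPM) exceeded that in bone GFP+ cells (57.3 CPM). The unscaled means were 43.6 CPM in bone GFP- cells and 134 CPM in bone chip GFP+ cells.

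*Tgfb2* encodes a ligand that, unlike the other 2, needs the coreceptor TGFBR3 for efficient binding to TGFBR2 (mm9 chr1:188447065-188529871, minus strand). Fresh bone GFP- libraries had 41.1, 55.1 and 48.3 CPM and bone GFP+ libraries 8.3, 8.83 and 5.2 CPM. Bone chip GFP- libraries had 213, 171 and 221 CPM and bone chip GFP+ libraries 335, 327 and 263 CPM. On scaled totals the groups lay apart in both sources, but in opposite orders. Without scaling, the bone chip means were 230 CPM in GFP+ and 219 CPM in GFP- cells, so the size of that rise depends on the scaling. The unscaled bone means were 3.25 CPM in GFP+ and 48.6 CPM in GFP- cells. In fresh bone the log2 fold change was -2.84 (SE 0.26, adjusted p = 2.9e-05), and in bone chips it was 0.62 (SE 0.14, adjusted p = 0.011). The interaction test gave a difference of 3.46 (SE 0.29, adjusted p = 3.1e-06). In ESC the 3 libraries held 5 counts together (0.219, 0.101 and 0 CPM), and ESC-OB GFP+ libraries had 37.4, 42.5 and 34.8 CPM. The ratio of summed levels was 356 (95% counting interval 152 to 1096, which covers counting error alone), and the fitted log2 fold change was 8.42 (adjusted p = 1.8e-08).

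*Tgfb3* encodes the third ligand (mm9 chr12:87397694-87419991, minus strand). It had 118, 88.6 and 93.5 CPM in bone GFP- cells and 73.5, 98.4 and 47.6 CPM in bone GFP+ cells, and these ranges overlapped (log2 fold change -0.59, SE 0.26, adjusted p = 0.0935). Without bone GFP+ replicate 2, its highest GFP+ library there, the change was -0.88 (adjusted p = 0.0196). Bone chip GFP- libraries had 82.9, 62.4 and 75.4 CPM and bone chip GFP+ libraries 105, 118 and 115 CPM, apart from each other (0.63, SE 0.12, adjusted p = 0.00568). In a joint fit of the 18 libraries that value was 0.62 and was not called (adjusted p = 0.0559). On unscaled totals the bone chip means were 84.2 CPM in GFP+ and 79.9 CPM in GFP- cells, so the size of this rise depends on the scaling too. The effects in the 2 sources differed by 1.22 (SE 0.32, adjusted p = 0.012). In ESC 1 count was seen over the 3 libraries, against 46.9, 82.1 and 52.8 CPM in ESC-OB GFP+ cells. The ratio of summed levels was 2762, with a wide 95% counting interval of 496 to 109109 (fitted log2 fold change 11.20, adjusted p = 2.0e-08). Without ESC replicate 2, which held that count, the fitted value was 13.75 and depends on the prior count.

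The promoters of *Tgfb1* and *Tgfb2* are shown because these ligands were called in opposite directions in fresh bone. RefSeq's table of promoters (GRCm38.p6, 250 bases before to 50 after each annotated start) held 12 entries for 8 of the 10 genes and none for *Tgfb3* and *Tgfbr3*. Both strands were searched for the GC box GGGCGG, the TATA box TATAAA and the cyclic AMP response element TGACGTCA, which are in capitals in sequences read 5′ to 3′ on the gene's strand. Matches to the GC box on the opposite strand appear as CCGCCC. *Tgfb1* lies at chr7:25686752-25687051 (plus strand) and *Tgfb2* at chr1:186705940-186706239 (minus strand).
Tgfb1: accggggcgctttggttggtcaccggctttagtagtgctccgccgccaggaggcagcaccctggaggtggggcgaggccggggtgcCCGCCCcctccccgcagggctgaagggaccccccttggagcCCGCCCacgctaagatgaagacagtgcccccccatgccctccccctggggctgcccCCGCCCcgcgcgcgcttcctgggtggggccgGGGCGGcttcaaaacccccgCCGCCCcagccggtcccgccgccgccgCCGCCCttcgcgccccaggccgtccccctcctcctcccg
Tgfb2: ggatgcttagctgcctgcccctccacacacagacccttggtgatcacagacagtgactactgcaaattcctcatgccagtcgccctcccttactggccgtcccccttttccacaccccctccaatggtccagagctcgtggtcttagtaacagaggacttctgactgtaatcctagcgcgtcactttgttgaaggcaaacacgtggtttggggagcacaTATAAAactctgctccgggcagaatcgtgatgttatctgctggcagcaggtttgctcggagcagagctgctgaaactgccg
The *Tgfb1* window held 6 GC boxes, 1 of which lies after the start, no TATA box and 77.0% G and C. The *Tgfb2* window held a TATA box whose first base is at -31 from the start, no GC box and 54.3% G and C. Of 32851 promoters in the table, 35.7% held a GC box, 13.6% a TATA box and 1.79% the cyclic AMP response element, and the median G and C content was 52.7%. The letters CAGACA, the core bound by SMAD proteins, were in the *Tgfb2* window and in 21% of all promoters, and TGTGGT, the core bound by RUNX factors, was in neither window and in 16.8% of all promoters. These matches describe the letters and not binding, which was not measured here.

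Levels per kb of exon allow an approximate comparison between genes. On that scale *Tgfb1* made up 69.6% ± 4.73 (SD, n = 3) of the ligand transcripts in bone GFP+ cells, *Tgfb3* 28.4% ± 4.6 and *Tgfb2* 2.04% ± 0.206. In bone GFP- cells *Tgfb3* led with 52% ± 4.87, and *Tgfb2* had 17.9% ± 4.87. The bone chip cultures carried more *Tgfb2*, with 43.4% ± 4.53 in GFP- and 38.1% ± 4.28 in GFP+ cells. There *Tgfb1* was 34% ± 7.11 and 42% ± 3.67, so the leading ligand's range overlapped the next in both. ESC-OB GFP+ cells had 54.6% ± 5.16 *Tgfb3*, 24.8% ± 3.27 *Tgfb2* and 20.6% ± 2.92 *Tgfb1*. The sum of the 3 ligands was 167 ± 2.65 CPM per kb in bone chip GFP+ cells, 95.9 ± 3.36 in bone chip GFP- cells, 74.5 ± 14.6 in bone GFP+ cells, 56.9 ± 6.9 in bone GFP- cells, 32.4 ± 6.83 in ESC-OB GFP+ cells and 0.859 ± 0.598 in ESC. On scaled totals the ligand sums of the 2 fresh bone populations overlapped (49.1 to 62.2 against 58.9 to 87.9 CPM per kb), and those of the 2 bone chip populations did not.

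**Figure D3:**
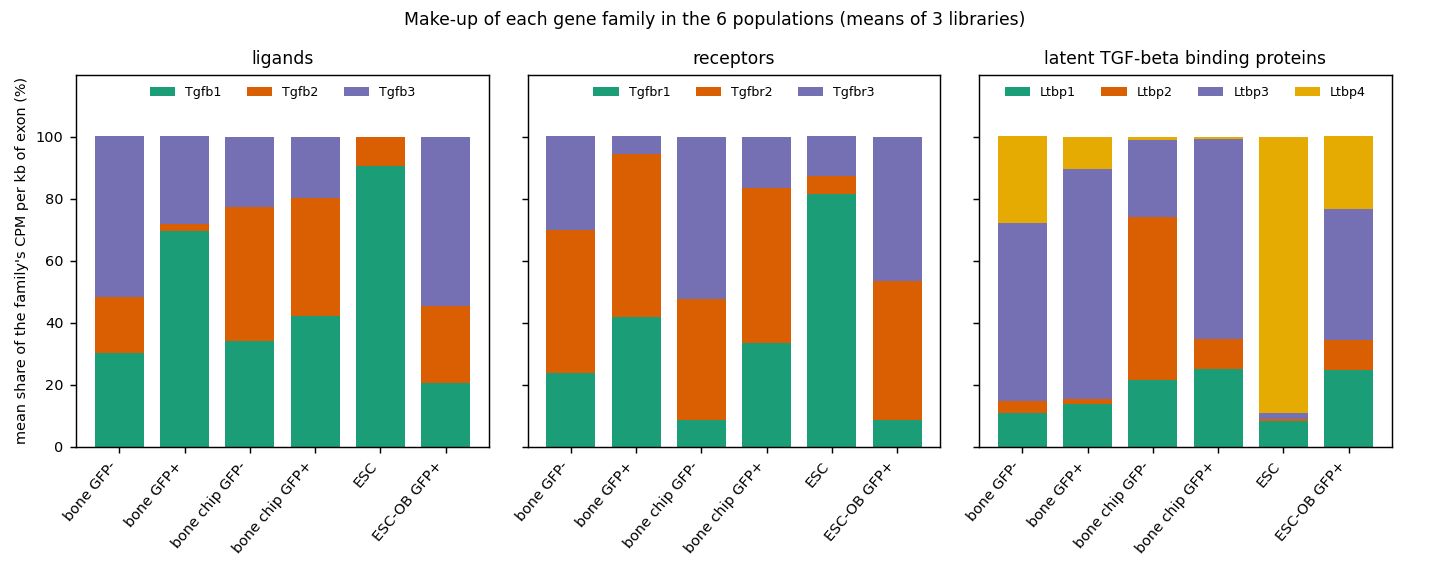
Share of each gene in the summed CPM per kb of exon of its family, as means of 3 libraries, for ligands, receptors and latent TGF-beta binding proteins in the 6 populations. The *Tgfb1* segment is 69.6% of the ligands in bone GFP+ cells, and the *Ltbp2* segment is 52.7% of the binding proteins in bone chip GFP- cells and 9.71% in bone chip GFP+ cells.

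Among the receptors, *Tgfbr3* moved most in bone and bone chips. It encodes betaglycan, the coreceptor that presents ligand to TGFBR2 (mm9 chr5:107535589-107718648, minus strand). It had 41.1, 59.1 and 51.4 CPM in bone GFP- cells and 9.28, 10.2 and 3.49 CPM in bone GFP+ cells. In bone chips the values were 288, 173 and 291 CPM in GFP- cells and 38.1, 35.3 and 36.1 CPM in GFP+ cells. The GFP+ libraries lay below the GFP- libraries in both sources, with log2 fold changes of -2.87 (SE 0.37, adjusted p = 2.6e-04) and -2.77 (SE 0.21, adjusted p = 1.1e-04). The difference of the effects was 0.09 (SE 0.44, adjusted p = 0.896) and lay between -0.27 and -0.12 without bone GFP+ replicate 3, bone GFP- replicate 2 or bone chip GFP- replicate 2. Against ESC (7.99, 4.84 and 2.27 CPM) it was higher in ESC-OB GFP+ cells (108, 125 and 152 CPM), by 4.65 on the log2 scale (SE 0.35, adjusted p = 6.1e-07). *Tgfb2* and *Tgfbr3* thus fell together in bone GFP+ cells, while in bone chip GFP+ cells *Tgfb2* rose on scaled totals and *Tgfbr3* fell.

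*Tgfbr2*, the type II receptor that binds the ligand (mm9 chr9:115993415-116084383, minus strand), had 94.9, 66.4 and 123 CPM in bone GFP- and 99.8, 74.9 and 101 CPM in bone GFP+ cells. These ranges overlapped (log2 fold change -0.19, SE 0.23, adjusted p = 0.532). In bone chips it had 220, 267 and 196 CPM in GFP- and 147, 130 and 136 CPM in GFP+ cells, lower in each GFP+ library (-0.72, SE 0.13, adjusted p = 0.00457). In ESC it had 3.72, 2.89 and 1.64 CPM, and in ESC-OB GFP+ cells 155, 134 and 166 CPM (5.75, SE 0.26, adjusted p = 2.4e-08).

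*Tgfbr1*, the type I receptor kinase (mm9 chr4:47366094-47427803, plus strand), was, like *Ltbp4*, well expressed in ESC. It had 29.8, 33.6 and 29.1 CPM in ESC and 17, 27.3 and 25.4 CPM in ESC-OB GFP+ cells. The libraries lay apart, but the change of -0.42 (SE 0.20) was not called (adjusted p = 0.0709), and it was called without ESC-OB GFP+ replicate 2 (-0.48, adjusted p = 0.0451). In bone, 25.9, 57.4 and 35.1 CPM in GFP- cells overlapped 56.2, 58.6 and 60.2 CPM in GFP+ cells (0.41, adjusted p = 0.247). Without bone GFP- replicate 2, the high GFP- library, the change was 0.81 (adjusted p = 0.0154). In bone chips 29.8, 56.4 and 32.4 CPM in GFP- cells lay below 86.1, 73.3 and 63.3 CPM in GFP+ cells (0.92, SE 0.26, adjusted p = 0.0256). This call was lost without bone chip GFP+ replicate 1 (0.80, adjusted p = 0.0896) or 2 (0.93, adjusted p = 0.0638), and without bone chip GFP- replicate 1 (0.78, adjusted p = 0.0574) or 3 (0.82, adjusted p = 0.0585).

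Per kb of exon, *Tgfbr3* took 30.3% ± 3.84 of the receptor transcripts in bone GFP- and 5.54% ± 2.83 in bone GFP+ cells, and 52.4% ± 11.9 in bone chip GFP- and 16.5% ± 0.802 in bone chip GFP+ cells (SD, n = 3). The *Tgfbr1* share went from 23.6% ± 8.86 to 41.8% ± 3.44 in bone and from 8.48% ± 3.66 to 33.3% ± 2.7 in bone chips. *Tgfbr2* held 46.2% ± 12.7 and 52.7% ± 5.14 in bone, and 39.1% ± 8.3 and 50.2% ± 1.98 in bone chips, with overlapping ranges in bone. ESC stood apart with 81.5% ± 8.03 *Tgfbr1*, whereas ESC-OB GFP+ cells had 8.48% ± 1.86 *Tgfbr1* beside 46.6% ± 3.08 *Tgfbr3* and 44.9% ± 4.56 *Tgfbr2*. The summed receptor level was 72.5 ± 3.98 CPM per kb in bone chip GFP- cells, 41.9 ± 5.04 in ESC-OB GFP+ cells, 34 ± 2.84 in bone chip GFP+ cells, 25.5 ± 3.28 in bone GFP- cells, 21.5 ± 1.43 in bone GFP+ cells and 5.83 ± 0.714 in ESC.

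Of the latent TGF-beta binding proteins, *Ltbp2* spanned the widest range. It differs from the other 3 in that its protein does not bind latent TGF-beta but binds microfibrils (mm9 chr12:86124162-86217482, minus strand). Bone chip GFP- libraries had 1331, 643 and 1508 CPM and bone chip GFP+ libraries 64.8, 50.4 and 65.2 CPM. Fresh bone GFP- libraries had 18.9, 18.4 and 22.2 CPM and bone GFP+ libraries 5.24, 4.79 and 12.6 CPM. The groups lay apart in both sources, with bone chip GFP- replicate 2 the low library of its group. On the log2 scale the change was -4.26 (SE 0.35, adjusted p = 1.4e-04) for bone chips and -1.54 for fresh bone (SE 0.38, adjusted p = 0.0104), a difference of -2.73 (SE 0.52, adjusted p = 0.00169). In ESC it had 0.548, 0.37 and 0.63 CPM (21 counts in all) and in ESC-OB GFP+ cells 42.8, 81.9 and 35.2 CPM (6.83, SE 0.44, adjusted p = 2.0e-07). Its exons share 764 bases with D030025P21Rik on the opposite strand, which reached at most 3.94 CPM in any bone chip GFP- library, and the strand setting of the counting is not given in the sources used here.

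*Ltbp1*, which binds latent TGF-beta and ties it to the matrix (mm9 chr17:75404908-75791852, plus strand), had 625, 443 and 681 CPM in bone chip GFP- and 199, 182 and 228 CPM in bone chip GFP+ cells. In bone it had 57.4, 68.2 and 75.7 CPM in GFP- and 66.8, 93.8 and 92 CPM in GFP+ cells. The bone chip libraries lay apart (-1.51, SE 0.18, adjusted p = 7.1e-04), and the fresh bone libraries overlapped (0.18, SE 0.19, adjusted p = 0.484). The difference between the effects was -1.70 (SE 0.28, adjusted p = 6.7e-04). In ESC-OB GFP+ cells it had 139, 229 and 151 CPM against 9.53, 7.8 and 5.54 CPM in ESC (4.48, SE 0.27, adjusted p = 1.5e-07).

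*Ltbp3*, which binds latent TGF-beta and whose loss gives skeletal defects in mice (mm9 chr19:5740904-5758532, plus strand), was called in neither bone nor bone chips. It had 216, 97.4 and 289 CPM in bone GFP- and 266, 284 and 156 CPM in bone GFP+ cells, which overlapped (0.09, SE 0.36, adjusted p = 0.867). Leaving out replicate 2 of either group turned the sign, to -0.09 without the GFP+ library and -0.23 without the GFP- library, uncalled in each case. In bone chips 373, 242 and 380 CPM in GFP- cells overlapped 250, 251 and 255 CPM in GFP+ cells (-0.39, SE 0.17, adjusted p = 0.115). Without bone chip GFP- replicate 2 the value was -0.58 (adjusted p = 0.00155). In ESC it had 1.42, 0.235 and 0.63 CPM and in ESC-OB GFP+ cells 118, 187 and 125 CPM (7.90, SE 0.47, adjusted p = 1.2e-07). That change was 8.73 without ESC replicate 1 and 7.06 without ESC replicate 2.

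*Ltbp4*, a partner of latent TGF-beta in elastic tissues (mm9 chr7:28090155-28122711, minus strand), followed another order of populations. It had 139, 76.8 and 130 CPM in bone GFP- and 26.8, 72.9 and 26.2 CPM in bone GFP+ cells, with replicate 2 close to the lowest GFP- library (-1.60, SE 0.41, adjusted p = 0.0119). With that replicate as the lone GFP+ library, where the spread comes from the GFP- libraries alone, the change was -0.75 and was not called (adjusted p = 0.142), and without it the change was -2.28 (adjusted p = 2.7e-04). In bone chips it was scarce, with 21.8, 15.4 and 22.5 CPM in GFP- and 3.99, 2.93 and 4.42 CPM in GFP+ cells (-2.39, SE 0.22, adjusted p = 2.4e-04). ESC had 35.4, 67.7 and 67.9 CPM, and ESC-OB GFP+ cells 80.1, 115 and 96.9 CPM, above each ESC library (0.76, SE 0.25, adjusted p = 0.0151). In the joint fit of 18 libraries the last change was 0.77 and not called (adjusted p = 0.0513).

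The promoters of *Ltbp1* and *Ltbp2* are shown because the GFP effect on both genes was more negative in bone chips than in bone. They lie at chr17:75005279-75005578 (plus strand, the first of 2 annotated *Ltbp1* starts) and chr12:84876442-84876741 (minus strand) of GRCm38.p6, with the same motifs in capitals.
Ltbp1: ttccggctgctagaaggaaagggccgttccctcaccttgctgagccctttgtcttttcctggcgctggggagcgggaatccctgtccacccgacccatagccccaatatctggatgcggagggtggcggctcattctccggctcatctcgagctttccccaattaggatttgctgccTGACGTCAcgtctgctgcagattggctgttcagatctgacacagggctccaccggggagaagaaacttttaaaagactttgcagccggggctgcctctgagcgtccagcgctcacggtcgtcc
Ltbp2: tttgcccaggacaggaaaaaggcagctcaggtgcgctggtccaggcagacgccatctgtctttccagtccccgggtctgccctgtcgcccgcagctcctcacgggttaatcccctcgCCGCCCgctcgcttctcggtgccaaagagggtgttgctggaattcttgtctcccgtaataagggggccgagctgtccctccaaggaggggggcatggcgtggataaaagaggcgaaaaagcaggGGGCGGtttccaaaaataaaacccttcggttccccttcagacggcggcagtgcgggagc
The *Ltbp1* window held the cyclic AMP response element TGACGTCA, with its first base at -73 and no GC box or TATA box, and was the 1 of 12 entries with this element. The *Ltbp2* window held 2 GC boxes, at -133 on the opposite strand and at -9, and neither of the other motifs. Over the 12 entries, 6 held a GC box and 1 a TATA box. The 6 include *Ltbp4* windows that overlap each other, so the entries are not all separate. CAGACA was in 4 and TGTGGT in 1, the second *Ltbp1* start.

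Per kb of exon, *Ltbp3* led the binding proteins in bone GFP- (57.2% ± 8.77), bone GFP+ (74.2% ± 7.33), bone chip GFP+ (64.4% ± 2.55) and ESC-OB GFP+ cells (42.2% ± 0.366; SD, n = 3). In bone chip GFP- cells *Ltbp2* led with 52.7% ± 5.46, against 9.71% ± 1.03 in bone chip GFP+ cells. In ESC *Ltbp4* made up 89.3% ± 6.68. *Ltbp4* held 28.1% ± 3.94 in bone GFP- cells and 10.3% ± 4.27 in bone GFP+ cells, but at most 1.41% in any bone chip library. The 4 genes summed to 263 ± 82.8 CPM per kb in bone chip GFP- cells and 75.4 ± 3.58 in bone chip GFP+ cells, which lay apart. The sums of 65.2 ± 23.6 in bone GFP- and 60.6 ± 15.6 in bone GFP+ cells overlapped.

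Markers of cells other than osteoblasts differed between the populations too, in both directions. In bone, 8 chondrocyte markers summed to 139674 to 295487 CPM in GFP- and 17200 to 21573 CPM in GFP+ libraries. Of these, 7 of 8 were called lower and none was at 0 in either group. *Col11a2*, the marker not called, made up most of the GFP+ sum (14440 to 14980 CPM). Of 6 fibroblast and progenitor markers tested there, 5 were lower and *Pdgfra* was higher (2.17), and their sums overlapped (173 to 311 CPM in GFP- and 194 to 285 CPM in GFP+ libraries). Smooth muscle markers (2 of 3 tested were lower) summed to 21.3 to 30.1 CPM in bone GFP- and 12.6 to 15.8 CPM in bone GFP+ libraries, and lymphoid markers (2 of 2 were lower) to 5.04 to 90.4 CPM and 0.621 to 1.09 CPM. Of 3 stromal and adipocyte markers tested in bone, 2 were higher and 1 lower. Of 5 erythroid markers tested in bone 2 were lower, of 6 myeloid markers 1 was lower, and of 2 megakaryocyte markers 0 were called. In bone chips, 7 markers of fibroblasts and progenitors summed to 578 to 984 CPM in GFP- and 230 to 265 CPM in GFP+ libraries (6 of 6 tested were lower). Sums of the 8 chondrocyte markers overlapped there (4695 to 8807 CPM in GFP- and 8199 to 10033 CPM in GFP+ libraries). Gene by gene, 2 of these 8 were higher, 3 lower and 3 not called. There 6 stromal and adipocyte markers went from 1414 to 2506 CPM down to 251 to 273 CPM, and 5 smooth muscle markers from 172 to 311 CPM down to 57.9 to 85.4 CPM. Gene by gene, 4 of the 6 stromal and adipocyte markers were lower, *Lepr* was higher (1.16) and *Pparg* was not called, and 3 of 4 smooth muscle markers tested were lower while *Des* was higher (1.74). *Cxcl12*, a stromal chemokine, made up most of the stromal sum (1332 to 2402 CPM in GFP- and 188 to 199 CPM in GFP+ libraries) and is also 1 of the 3 genes most like *Ltbp2*. Myeloid markers summed to 3915 CPM in bone chip GFP- replicate 2, which was the lowest library of its group for *Tgfb2*, *Tgfb3*, *Tgfbr3* and all 4 binding proteins and the highest for *Tgfb1*, *Tgfbr1* and *Tgfbr2*, and to 455 and 346 CPM in replicates 1 and 3, against 502 to 808 CPM in GFP+ libraries. Endothelial markers summed to at most 5.37 CPM in the bone and bone chip libraries. In ESC-OB GFP+ cells, 6 of 6 markers of stratified epithelium were higher than in ESC. The 3 of them present in all sources summed to 426 to 484 CPM, against 11 to 27.5 CPM in ESC. The 5 smooth muscle markers summed to 291 to 834 CPM against 8.06 to 9.75 CPM. Of 4 myeloid markers tested 4 were higher, of 7 chondrocyte markers 5 were higher and 1 lower, and of 4 endothelial markers 3 were higher and 1 lower. Fibroblast and progenitor markers summed to 564 to 797 CPM there against 3.39 to 6.86 CPM in ESC (6 of 7 higher, 1 lower), and stromal and adipocyte markers to 175 to 387 CPM against 2.41 to 4.61 CPM (5 of 5 higher). In bone GFP+ cells 5 pluripotency markers summed to 26.7 to 35.2 CPM, against 0.163 to 0.671 CPM in bone GFP- cells and 2574 to 3034 CPM in ESC. The part of these other cells in the changes of the 10 genes was not tested.

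The test of the difference between sources, bone chips minus bone, called 4 of the 10 genes (30.3% of 13574 genes tested were called). *Tgfb2* and *Tgfb3* had the more positive effect in bone chips, and *Ltbp1* and *Ltbp2* the more negative one. *Tgfbr2* had a difference of -0.52 (SE 0.28, adjusted p = 0.176) and was called without bone GFP- replicate 3 (-0.84, adjusted p = 0.0234). For *Tgfbr1* (0.51, SE 0.40), *Ltbp3* (-0.48, SE 0.47) and *Ltbp4* (-0.79, SE 0.56) the difference was not called (adjusted p of 0.361, 0.477 and 0.312). Fresh sorting and culture came with different references, so the state of the GFP+ and of the GFP- cells cannot be told apart in these differences. In levels, *Ltbp2* in GFP- cells was 18.4 to 22.2 CPM in bone and 643 to 1508 CPM in bone chips. Its GFP+ levels were 4.79 to 12.6 CPM in bone and 50.4 to 65.2 CPM in bone chips.

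Over the 6 populations, bone chip GFP+ cells had the highest mean of *Tgfb1*, *Tgfb2*, *Tgfb3* and *Tgfbr1*, and bone chip GFP- cells that of *Tgfbr2*, *Tgfbr3*, *Ltbp1*, *Ltbp2* and *Ltbp3*. Bone GFP- cells had the highest mean of *Ltbp4*. For *Tgfb3*, *Ltbp3* and *Ltbp4* the libraries of the highest population overlapped those of the next. On totals that were not scaled, the highest mean of *Tgfb3*, *Tgfbr2* and *Ltbp4* moved to ESC-OB GFP+ cells, and the other 7 kept theirs. On scaled totals ESC had the lowest mean of 8 of the 10 genes. The exceptions were *Tgfbr1* (lowest in ESC-OB GFP+ cells) and *Ltbp4* (lowest in bone chip GFP+ cells). On unscaled totals bone GFP+ cells had the lowest mean of *Tgfbr1* (25.4 CPM) and *Tgfbr3* (3.35 CPM). Of the 50 pairs of neighbours in the scaled orders, 19 overlapped in their ranges. Overlaps were most frequent for *Ltbp3*, with 4 of 5 pairs, and absent for *Tgfb1*. Levels of different sources come from separate tables, and no test was run between them other than the interaction.

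The genes with the most similar pattern were ranked by Pearson's r of log2(CPM + 1) over the 18 libraries, among 11979 genes. These libraries share population, source and depth, so r mostly reflects the 6 populations and is given without a test. *Runx2*, the transcription factor that commits cells to the osteoblast lineage, was nearest to *Tgfb1* (r = 0.982), followed by *Col5a1*, a chain of fibrillar collagen V (0.977), and *Galnt10* (0.976). Nearest to *Tgfb2* were *Lama4*, a laminin chain (0.977), *Cyp26b1*, which degrades retinoic acid (0.974), and *Lmo4* (0.974). *Tgfb3* was nearest to *Msrb3* (0.991), *Prdx5* (0.987) and *Itfg3* (0.987).
For the receptors, *Gtf2i* (0.876), *Phex*, an endopeptidase of osteoblasts and osteocytes (0.874), and *Gsg1l* (0.872) were nearest to *Tgfbr1*. *Tgfbr2* was nearest to *Parva*, an actin-binding protein of focal adhesions (0.990), *Tnfrsf1a*, a TNF receptor (0.989), and *Tgfb1i1* (0.987). *Thbd* (0.967), *Cyp1b1* (0.964) and *Gas6* (0.963) were nearest to *Tgfbr3*.
For the binding proteins, *Ltbp1* was nearest to *Csf1*, the macrophage growth factor (0.985), *Vwa5a* (0.982) and *Cebpa* (0.977). *Ltbp2* was nearest to *Nsg1* (0.978), *Cxcl12* (0.977) and *Wisp2* (0.974), *Ltbp3* to *Fosb* (0.986), *Tnfrsf1a* (0.984) and *Npr2* (0.984), and *Ltbp4* to the imprinted gene *Peg3* (0.929), *Fhl1* (0.927) and *Vrk3* (0.897). Among the 10 genes themselves, *Tgfb3* with *Ltbp3* (0.98), *Tgfbr2* with *Ltbp3* (0.97) and *Ltbp1* with *Ltbp2* (0.94) had the highest r. *Tgfbr1* with *Ltbp4* had the lowest (-0.70).

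The other genes of the pathway were taken from 4 lists, and their counts stand beside the shares of all genes tested that were called higher and lower, 19.5% and 22.1% for bone, 20.4% and 23.1% for bone chips and 43.0% and 34.7% for ESC-OB. Of 13 tested genes that release, hold or process latent TGF-beta, 5 were higher, 1 was lower and 7 were not called in bone. Their median log2 fold change was 0.58, beside -0.00 over all genes tested. *Bmp1*, a protease that cleaves latent TGF-beta binding protein among other matrix proteins, rose by 3.38, and *Mmp2*, a gelatinase, rose by 2.05. *Mmp14*, the membrane protease that activates it, rose by 0.97 and *Itgb1*, a chain of many integrins, by 0.94. In bone chips 3 were higher and 6 lower (median -0.60). *Bmp1* rose again there (1.99), as did *Itgb3*, a chain of an integrin that binds latent TGF-beta (2.04). *Itgb8*, another such chain, fell by 4.11 in bone chips but was called higher in bone (2.44, with a mean of 4.96 CPM in GFP+ cells). *Mmp14* also went the other way than in bone, with a fall of 0.80 in bone chips. *Lrrc32*, which holds latent TGF-beta on cell surfaces, fell by 3.99 in bone chips. In ESC-OB 11 were higher and 1 lower (median 6.23). *Itgb6*, the chain of an epithelial integrin that activates TGF-beta, had 0 counts in ESC, and ESC-OB GFP+ cells were at least 665-fold higher, counted against a floor of 3 counts over the group. *Thbs1*, the activator thrombospondin, rose by 9.96 and *Mmp2* by 8.55. *Lrrc32* had 2 counts in ESC (ratio 1231, 95% counting interval 341 to 10163). Without bone chip GFP- replicate 3 the *Itgb8* change was -3.47, and without ESC replicate 3 that of *Lrrc32* in ESC-OB was 10.80, beside 10.12 with all libraries.

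Of 15 microfibril and elastic fibre genes, 3 were higher and 5 lower in bone (median -0.42), and 2 were higher and 11 lower in bone chips (median -2.12). *Fbn2*, the fibrillin of early microfibrils, went in opposite directions, with 3.72 (SE 0.21) in bone and -4.43 (SE 0.33) in bone chips. *Efemp1*, a fibulin, had 0 counts in bone GFP+ cells and was at least 347-fold lower than in bone GFP- cells against the same floor, and it fell by 4.10 in bone chips. *Mfap5*, a microfibril component, fell by 4.24 and *Emilin2* by 2.97 in bone. The *Mfap5* change was -3.61 without bone GFP+ replicate 1 and -5.12 without replicate 2. *Fbn1*, the main fibrillin, fell by 3.45 and *Fbln5*, a fibulin of elastic fibres, by 3.31 in bone chips. In ESC-OB 15 of 15 were higher (median 5.34), among them *Eln*, which encodes elastin (9.79), *Mfap4* (8.30) and *Mfap2* (7.98, or 9.21 without ESC replicate 2). *Adamtsl2*, which binds both fibrillin and latent TGF-beta binding protein, had 0 counts in ESC and was at least 165-fold higher. *Ltbp1* and *Ltbp2* fell in bone chip GFP+ cells, as did 11 of these 15 genes, while 2 rose. A link between these changes was not tested.

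Of 17 coreceptors, Smads and their regulators, 3 were higher and 3 lower in bone (median 0.02), with 4 and 4 for bone chips (median -0.11), and 7 and 3 for ESC-OB (median 0.21, beside 0.22 over all genes). These shares of called genes lay near or below those of all genes tested, so the counts are no result about the list. *Bambi*, a decoy receptor without kinase activity, rose in each comparison, by 3.00 (bone), 3.80 (bone chips) and 2.43 (ESC-OB). *Smad3*, a transducer of the signal, rose by 1.96 in bone, where *Smad2*, the other transducer, fell by 0.94 and *Smad7*, the inhibitory Smad, by 1.16. In bone chips *Acvrl1*, a type I receptor of endothelial cells, fell by 1.13, *Tgif1* by 0.98 and *Ski* by 0.87, the last 2 being corepressors of Smad complexes. The *Acvrl1* call was lost in the joint fit of 18 libraries (-1.14, adjusted p = 0.0984). In ESC-OB *Acvrl1* rose by 4.41, *Eng*, the coreceptor endoglin, fell by 3.19 and *Zfyve9*, an adaptor of Smads, fell by 3.68.

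Of 20 genes known to respond to TGF-beta, 2 were higher and 10 lower in bone (median -0.60), and 5 were higher and 10 lower in bone chips (median -0.48). *Lox*, the collagen cross-linking enzyme, rose by 5.55 in bone. There *Tgfbi*, a matrix protein, fell by 3.70, *Il11*, a cytokine, fell by 4.93 and *Snai2*, a transcription factor of mesenchymal cells, fell by 2.92. In bone chips *Tgfbi* fell by 3.50, *Tagln*, a smooth muscle actin-binding protein, fell by 2.18 and *Il11* fell by 2.15. *Ctgf*, a matricellular growth factor, rose by 1.87 in bone chips but fell by 2.35 in bone. The *Il11* call was lost without bone chip GFP+ replicate 1 (-2.05, adjusted p = 0.103) or 2 (-1.72, adjusted p = 0.0632), or bone chip GFP- replicate 3 (-1.54, adjusted p = 0.0852), and the change was -2.93 without bone chip GFP+ replicate 3. In bone the *Il11* change was -5.89 without bone GFP+ replicate 1. In ESC-OB 16 were higher and 1 lower (median 3.40), led by *Lox* (12.34), *Acta2*, smooth muscle actin (10.50), *Postn*, periostin (10.07), and *Tgfb1i1* (9.77, from 2 counts in ESC). Without ESC replicate 2, *Lox* was at 13.37 and *Tgfb1i1* at 13.18. *Acta2* and *Tagln* are also among the smooth muscle markers. *Smad7* and *Tgif1* are among the response genes that also stand in the list of coreceptors and Smads, so the counts of these lists are not separate.

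**Figure D4:**
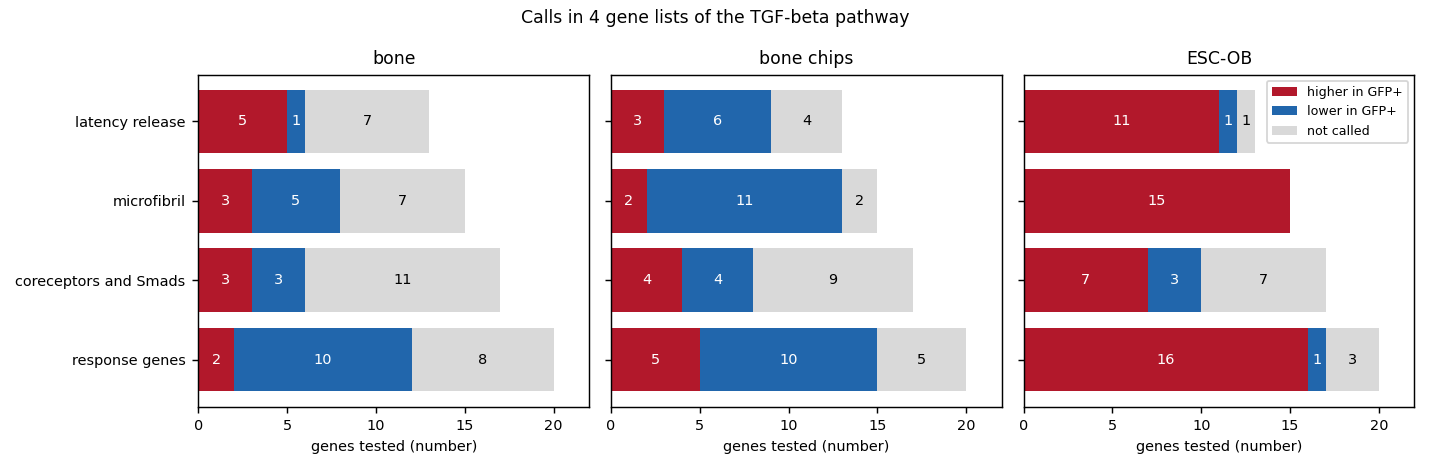
Number of tested genes called higher or lower in GFP+ cells, or not called, in 4 lists of TGF-beta pathway genes, for bone, bone chips and ESC-OB (edgeR, adjusted p under 0.05). Of the 15 microfibril genes, 11 were lower in bone chips and 15 higher in ESC-OB.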

How the data were processed

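Poly-A mRNA of 18 libraries was prepared with the NEBNext Ultra II kit, sequenced from both ends on an Illumina sequencer, aligned to mm9 with STAR 2.4.2a and tested by the authors with DESeq2 under R 3.2.2. The counting tool, its strand setting and its handling of reads with several alignments are not given in the sources used here. The deposited tables, 1 per source, hold raw counts per RefSeq gene, and 4 rows with date-like names were left out of the ESC table. Every column of the tables matched a sample, and 1 other gene is left out of the text.

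Each source was fitted alone with edgeR 4.0.16 under R 4.3.3 (filterByExpr with a minimum count of 10, TMM, quasi-likelihood test, no covariates), with Benjamini-Hochberg adjustment over all genes tested. The difference between bone chips and bone was an interaction in a fit of 12 libraries. Standard errors are the size of the log2 fold change over the root of F. The steps were tested on simulated data. Positions and exon lengths are from GENCODE vM1 (mm9), and promoters from RefSeq (GRCm38.p6). Each exon length joins the exons of all transcripts of a gene in GENCODE vM1, whereas the counts are per RefSeq gene. Shares between genes are therefore approximate.

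The 10 genes, the lists and the tests were chosen with earlier results of these data known. Named besides the 10 genes are up to 4 called members of each list and comparison with the largest change and at least 5 CPM, the 3 genes nearest to each of the 10 genes (at least 5 CPM in 1 population, no clone or predicted symbols), and *Col1a1* and *Bglap* as the check of the sort. Some cell type markers are named as well. In bone chips, deviations from the group means correlated between same-numbered libraries at 0.158, 0.329 and 0.396, which pairs them by the data and not by a label. In bone and ESC-OB none passed 0.0305. The results were recomputed with DESeq2 1.42.0, with factors by RLE or upper quartile, other low-count filters, a replicate block, a joint fit, leaving out *Rn45s*, *Col1a1* and *Col1a2*, thinning, a test against a log2 change of 1, and leaving out each library. Figures were drawn with matplotlib 3.10.9.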

Additional observations from a re-analysis of the deposited data

Results flagged for a closer look

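For 4 of the 10 genes the interaction test found the GFP effect to differ between the sources, bone chips minus bone on the log2 scale. The same test called 30.3% of the 13574 genes tested. The difference was 3.46 for *Tgfb2*, which was lower in bone GFP+ cells and higher in bone chip GFP+ cells, and 1.22 for *Tgfb3*, which was called in bone chips and not in bone. It was -1.70 for *Ltbp1*, lower in bone chip GFP+ cells and not called in bone, and -2.73 for *Ltbp2*, lower in both. These 4 calls held under each alternative run for this test.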

How the results depend on the processing

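Counts of called genes among the 10 changed by over 1.5 times under a test against a log2 change of 1, with 0 higher and 2 lower in bone (*Tgfb2* and *Tgfbr3*) and 0 higher in bone chips. Leaving out 1 library gave 1 to 2 higher and 4 to 5 lower in bone, 3 to 4 higher and 5 to 6 lower in bone chips, 9 higher and 0 to 1 lower in ESC-OB, and 4 to 5 differing between sources. Signs turned for genes that were not called: over the leave-one-out fits *Tgfbr2* in bone spanned -0.37 to 0.08, *Ltbp3* in bone -0.23 to 0.48, and the *Tgfbr3* difference between sources -0.27 to 0.34. The replicate block changed no call among the 10 genes in any comparison, with *Tgfb2* at -2.85 (bone), 0.62 (bone chips) and 8.48 (ESC-OB) under the block, and 4 genes differing between sources. With factors by RLE or upper quartile, or without *Rn45s*, *Col1a1* and *Col1a2*, no gene of the 10 changed its call in the 3 comparisons. The cause of the changes named here and beside the results was not tested. Alternatives chosen after seeing the data were the lone bone GFP+ replicate 2, assumed to vary like the GFP- libraries, which left 3 genes lower, and ESC replicates 2 and 3 summed as 1 sample, which changed no call. On unscaled totals 19 of 50 neighbour pairs overlapped, as on scaled totals, but the order of populations itself changed for some genes, among them *Tgfb1* and *Tgfbr1*. The ESC libraries held 1 count of *Tgfb3* and 5 of *Tgfb2* in all, which limits those folds.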
